A study of Rattus norvegicus with 18 samples.

Results

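The Fos window is the 1 Mb of rat chromosome 6 centred on the start site of Fos, chr6:108800433-109800433 on the rn6 assembly, which reaches 500 kb to each side of the start site at position 109300433. Its members are all peaks of chromatin accessibility in the deposited list that overlap this interval. There were 90 such peaks among the 192830 of the whole list, and among the 187393 on the 20 autosomes.

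The peaks come from ATAC-seq, in which a transposase cuts accessible DNA and leaves sequencing adapters behind, so that open chromatin collects reads. Primary neurons were prepared from the cortex, the hippocampus or the striatum of Sprague-Dawley rats at embryonic day 18 and kept for 11 days in vitro, and no group carried a transgene or other allele in the labels. At that age cultures of each of the 3 regions received vehicle (neurobasal medium) or KCl, which depolarizes neurons, for 1 h, and 3 libraries of 50000 nuclei each were made per group, for 18 libraries in 6 groups. The concentration of KCl is 25 mM in the sample labels and 10 mM in the text on the design. Reads of all libraries of a culture system, vehicle and KCl together, were joined for peak calling, and the 3 resulting sets of peaks were merged into a single list. The list therefore has no value per library, the depth behind a peak is unknown, and no replicate error and no effect of KCl at this locus could be computed. It holds no expression either, so the neuronal identity of the cultures was not checked against marker genes.

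Fos is an immediate early gene, transcribed within minutes of neuronal activity without a need for new protein synthesis, and its protein pairs with members of the Jun family to form the transcription factor AP-1. Calcium entry during depolarization activates kinases that act on CREB and SRF, factors bound near the start site of the gene. Distal enhancers around Fos add to this response, and active enhancers are transcribed into enhancer RNAs (eRNAs).

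The study steered catalytically dead Cas9 to the Fos promoter and to 3 enhancers with single guide RNAs (sgRNAs), whose 20-base target sequences are shown because they tie the names promoter and enhancer-1 to enhancer-3 to peaks of the list. Capitals mark the 10 bases next to the PAM, the short motif that Cas9 requires. The strand of each target is not given in the sources used here.
promoter: ggccacggctCTTGGGGAGC
enhancer-1: gaggagactaACTGAGCAGC
enhancer-2: gcctgttgtcATGACTGCCG
enhancer-3: gggtgggggcCTCTGACGGG
The share of G and C was 75% in the promoter target, 55% at enhancer-1, 60% at enhancer-2 and 80% at enhancer-3. Each listed target position on rn6 lay inside exactly 1 peak of the list, and the 4 peaks were different ones. The study drew its putative enhancers from open chromatin of these same cultures. That the enhancer targets lie in listed peaks is therefore not a separate result. For enhancer-1 and enhancer-3 the study also designed 150-base stretches of the eRNA to be tethered to chromatin, shown because they are the sequences chosen to represent these elements.
Fos eRNA1: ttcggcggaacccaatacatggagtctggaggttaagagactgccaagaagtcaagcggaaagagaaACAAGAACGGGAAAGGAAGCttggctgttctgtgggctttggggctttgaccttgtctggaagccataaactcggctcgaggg
Fos eRNA3: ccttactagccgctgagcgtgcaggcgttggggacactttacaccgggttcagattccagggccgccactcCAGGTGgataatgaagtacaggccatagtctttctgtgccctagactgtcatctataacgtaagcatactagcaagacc
In eRNA1 the capitals mark bases 68 to 87, the target of the antisense oligonucleotide used against it. The PCR primers for eRNA1 span its bases 1 to 148. A PCR product of 148 bp at enhancer-1 had 124 bp inside the enhancer-1 peak and 24 bp before it. The product was placed by its listed distance from the start site, and the eRNA1 sequence itself was not aligned to the genome. Whether the eRNA1 sequence reaches beyond that peak was not tested. In eRNA3 the capitals mark the letters of an E-box, CANNTG, the motif bound by basic helix-loop-helix proteins. Of all RefSeq promoters, 46.6% hold it in a stretch of the same length. The other motifs were searched on both strands as well. The site of CREB, known as CRE and spelled TGACGTCA, had 0 matches in either sequence, and so had its shorter form, spelled TGACG, which the full site contains. The AP-1 motif, spelled TGANTCA, had 0 matches in either sequence. The same held for the TATA box, spelled TATAAA, the GC box bound by Sp1, spelled GGGCGG, and the CArG box bound by SRF. In stretches of 150 bases of all promoters these motifs were found in 1.36% (CRE), 13.4% (TGACG), 3.69% (AP-1), 8.0% (TATA box), 26.0% (GC box) and 0.878% (CArG box), so that 0 matches in these 2 sequences is not unusual for any of them.

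Accessible chromatin filled 84340 bp of the Fos window, or 8.43%. Median peak length over the 90 peaks was 865 bp (95% interval of the median from the order of the peaks 653 to 991 bp), with quartiles of 507 and 1246 bp. They ran from a peak of 147 bp, which lay 328.8 kb upstream of Fos, to a peak of 3122 bp at 339.9 kb upstream. Neighbouring peaks were separated by a median gap of 6973 bp (95% interval 5609 to 9632 bp), from the end of a peak to the start of the next. Both the shortest and the longest peak of the window thus lay on its upstream side, far from the gene.

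At its edges, the first peak inside the window was chr6:108812113-108812500, of 388 bp with a fourth-column value of 1, and the last was chr6:109799502-109800623, of 1122 bp with a value of 1, which crosses the edge by 190 bp. The nearest peaks outside were chr6:108795650-108796580, of 931 bp with a value of 3, lying 3853 bp beyond the upstream edge, and chr6:109809704-109809961, of 258 bp with a value of 1, lying 9271 bp beyond the downstream edge.

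The fourth column of the list is a whole number from 1 to 10. It is taken here to count how many peaks from the 3 culture systems went into a listed peak, so that a value of 1 would stand for a peak called in a single culture system. No source states this, and the value does not say which culture system contributed. In the Fos window 31 peaks had a value of 1, or 34.4% (exact binomial 95% interval 24.7 to 45.2%, over peaks and not over cultures). Values of 2 and of 3 were carried by 29 peaks each, or 32.2% (22.8 to 42.9%). A single peak had a value of 4, and it was the peak of enhancer-3. The 3 common values were thus close to equal in number around Fos, whereas among the 187303 other autosomal peaks 48.4% had a value of 1, 32.3% a value of 2 and 18.7% a value of 3.

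**Figure D1:**
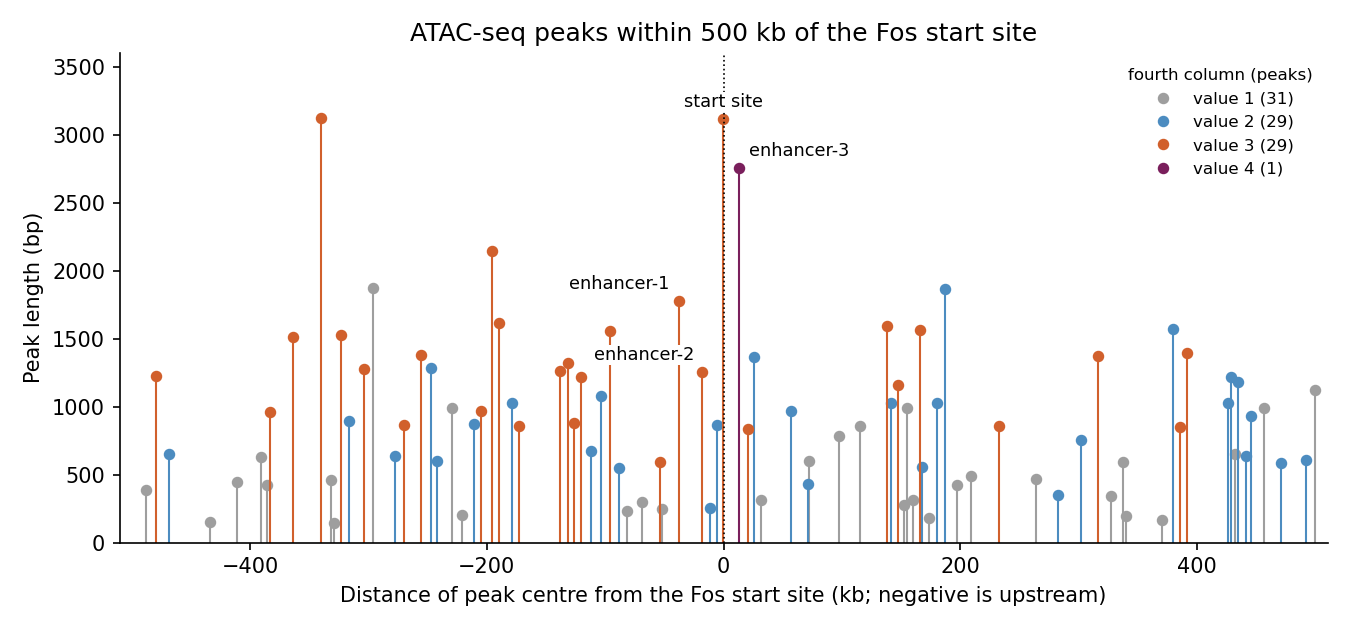
Length in bp of each of the 90 peaks of the Fos window against the distance of its centre from the Fos start site in kb, coloured by fourth-column value. The start site peak (3114 bp), enhancer-3 (2755 bp) and a peak at 339.9 kb upstream (3122 bp) stand above all others, and peaks with a value of 3 are more frequent upstream than downstream.

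The core of the locus is the peak that covers the Fos start site, chr6:109298472-109301585. Its length of 3114 bp ranked 2 among the 90 peaks of the window, and only 1820 of the 187393 autosomal peaks were longer, which puts it at percentile 99.0 of all autosomal lengths. Among the 35078 autosomal peaks that shared its value of 3, a group with a median of 1303 bp, it was at percentile 96.8. The gap to the next peak was 3404 bp on the upstream side and 10855 bp on the downstream side. In the 10 kb upstream of the start site there was 1 further peak, and in the 10 kb downstream 0.

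Enhancer-3, downstream of the start site at chr6:109312441-109315195, was the longest of the 3 enhancer peaks at 2755 bp, percentile 98.4 of autosomal lengths. A value of 4 or more was carried by 1021 autosomal peaks, or 0.545%, and the nearest other peak of this kind on chromosome 6 was 1828 kb away. Among the 784 autosomal peaks with a value of exactly 4, whose median was 3040 bp, its length was at percentile 36.3. Enhancer-3 is therefore long in comparison with all peaks and of ordinary length for its value. Of the other 1 Mb windows of the autosomes, 25.8% held at least 1 peak with a value of 4 or more.

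The upstream enhancers were shorter. Enhancer-1, the most distal at 37.8 kb from the start site (chr6:109261764-109263539), measured 1776 bp, percentile 92.4 of all autosomal peaks and 75.6 of those with a value of 3. Enhancer-2, at 18.5 kb upstream (chr6:109281337-109282588), measured 1252 bp, percentile 82.1 of all autosomal peaks and 46.2 of those with a value of 3. The 2 upstream enhancers were separated by a gap of 17797 bp without any peak. In order of length the 4 elements were the start site, enhancer-3, enhancer-1 and enhancer-2, all of them above the median of the autosomes, 689 bp.

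A further 5 peaks lay within 50 kb of the start site and held none of the 4 target positions. On the upstream side, between enhancer-2 and the promoter, these were chr6:109289248-109289498 of 251 bp and chr6:109294202-109295067 of 866 bp, each with a value of 2. The former was at percentile 0.818 of the 60571 autosomal peaks with a value of 2, so that it was among the shortest peaks of its kind. On the downstream side, beyond enhancer-3, the list had chr6:109320709-109321542 of 834 bp with a value of 3, chr6:109325502-109326862 of 1361 bp with a value of 2, and chr6:109331743-109332057 of 315 bp with a value of 1. The peak of 315 bp was the only peak within 50 kb with a value of 1. After it came 24629 bp without a peak.

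**Figure D2:**
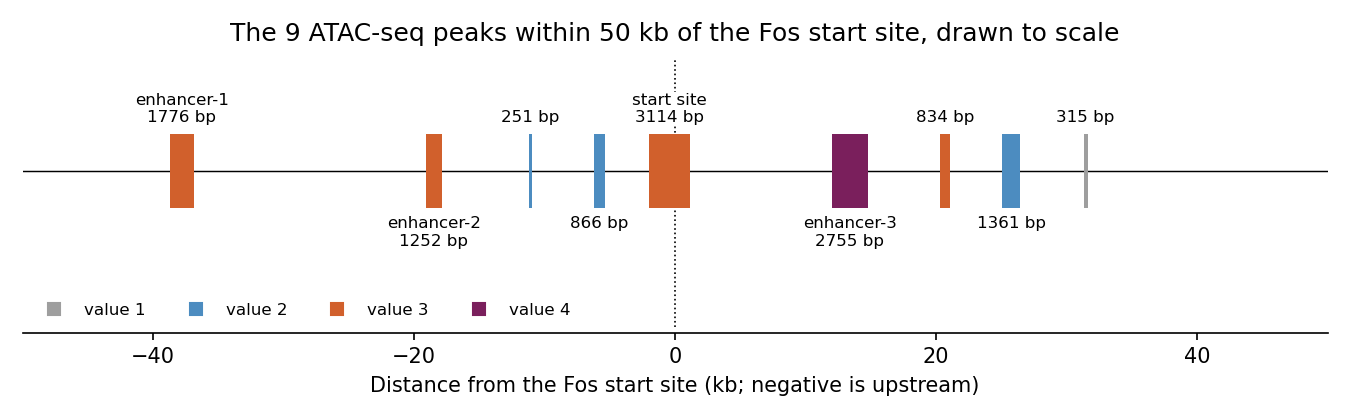
The 9 peaks within 50 kb of the Fos start site, drawn to scale along the distance from the start site in kb, with their lengths in bp and colours for the fourth-column value. The start site and the 3 enhancers are the wide blocks at values of 3 or 4, except that the peak of 1361 bp with a value of 2 was longer than enhancer-2.

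Together the 9 peaks spanned 12524 bp, of which the start site and the 3 enhancers made up 71.0%. These 100 kb are 10% of the window and held 14.8% of its summed peak length. Their median length was 1252 bp against 860 bp for the other 81 peaks. Of the 9 peaks, 5 were 1000 bp or longer, against 29 of the other 81, and 5 had a value of 3 or more, against 25 of 81. The start site and the 3 enhancers made up this contrast, since the other 5 peaks had a median of 834 bp, 1 of 1000 bp or longer and 1 with a value of 3 or more. The number of peaks was the number found in an average 100 kb of the window.

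The same 100 kb were then set beside the 100 kb around each other autosomal peak for which this span could be formed, 187156 in number. A percentile here is the percent of the others that lay lower, a tie counting equally to each side. By number of peaks the surroundings of Fos were at percentile 46.6, with 9 peaks against a median of 9. By base pairs in peaks they were at percentile 88.4, with 12524 bp against a median of 7515 bp, and by the share of peaks with a value of 3 or more at percentile 95.1, with 55.6% against a median of 16.7%. In a comparison chosen after seeing the data, with only the 1813 surroundings of peaks at least as long as the Fos start site peak, these values became percentile 36.8 by number, 45.5 by base pairs and 67.8 by share. Next to other long peaks the surroundings of Fos thus ranked closer to the middle by base pairs and by share. By number they ranked further below the middle. The median by base pairs among these others was 13178 bp. The base pairs of a span include its central peak, 3114 bp at Fos against a median of 689 bp over all autosomal peaks. Among the long peaks every central peak was at least as long as that of Fos. How much of these ranks comes from the central peak was not tested.

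Narrowing the span to 25 kb on each side, which keeps the start site, enhancer-2, enhancer-3 and 3 others, left 6 peaks with 9072 bp. Among the spans around 187221 autosomal peaks this was percentile 66.2 by number and 96.6 by base pairs. At 100 kb on each side there were 19 peaks with 18785 bp, at percentile 57.2 by number and 72.7 by base pairs. Among surroundings of peaks at least as long as the start site peak, the percentile by base pairs was 57.2 at 25 kb and 35.2 at 100 kb on each side. In both comparisons the rank by base pairs fell as the span widened, and beside other long peaks it was near the middle even in the narrowest span.

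In steps of 100 kb from the start site, the number of peaks ran from 4 to 13. The median of the 26163 tiles of 100 kb on the autosomes outside the window was 7 peaks, with quartiles of 4 and 10. The step nearest to Fos held 11 peaks on the upstream side and 9 on the downstream side, where the start site peak counts on both sides. The highest number, 13 peaks, was found from 100 to 200 kb downstream, at percentile 91.9 of the tiles, and the lowest, 4 peaks, in the step right after it, from 200 to 300 kb downstream, at percentile 23.2. Both steps were picked as extremes of the 10, and their percentiles against single tiles do not allow for that choice. The number of peaks did not fall off evenly with distance from Fos on either side. The SD of peak number over the 10 steps was 2.69, against a median of 2.84 in the other 1 Mb windows, percentile 43.8, so that peaks were spread over the window about as unevenly as elsewhere.

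**Figure D3:**
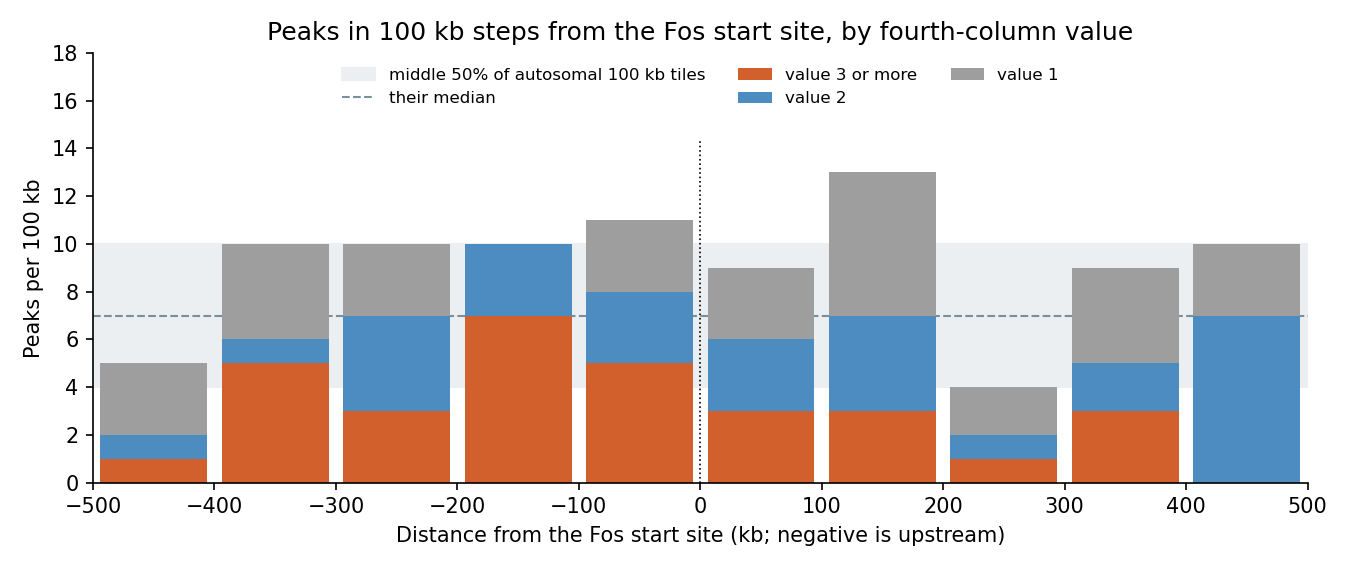
Number of peaks in each 100 kb step from the Fos start site, stacked by fourth-column value, with the median (7, dashed line) and quartiles (4 and 10, shaded) of 26163 autosomal tiles of 100 kb. The step from 100 to 200 kb upstream has 0 peaks with a value of 1, and the step from 400 to 500 kb downstream has 0 with a value of 3 or more.

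The step from 100 to 200 kb upstream was the highest of the 10 by covered length, by number of long peaks and by number of peaks with a value of 3 or more. It held 10 peaks with 12075 bp, percentile 92.9 of the tiles, of which 7 were 1000 bp or longer, percentile 98.4. This step was picked as the highest of the 10, and its percentiles against single tiles do not allow for that choice. The step from 100 to 200 kb downstream was close to it by length, with 11826 bp, percentile 92.3, and 6 peaks of 1000 bp or longer, percentile 96.3, but not by value, since 3 of its 13 peaks had a value of 3 or more and 6 a value of 1. Of the 10 peaks on the upstream side 7 had a value of 3, 3 had a value of 2 and 0 had a value of 1. The longest was chr6:109103504-109105648, of 2145 bp, centred 195.9 kb upstream, which ranked 4 in the window. At the opposite end, from 400 to 500 kb downstream, 7 of the 10 peaks had a value of 2 and 0 had a value of 3 or more.

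These peaks were part of an unbroken run. From 210.6 to 88.2 kb upstream, chr6:109089399-109212545, 14 neighbouring peaks in a row had a value of 2 or more, and 9 of them a value of 3. Among 2580 other autosomal windows with at least 10 peaks the longest run of this kind had a median of 5 peaks, and 61 windows had a run longer than 14, which puts the Fos window at percentile 97.2. The next longest run in the window had 8 peaks over 65.1 kb and was the one that begins at enhancer-1, passes through enhancer-2, the start site and enhancer-3, and ends with the peak of 1361 bp. The core of the Fos locus was therefore bounded on both sides by peaks with a value of 1, at 51.9 kb upstream and 31.5 kb downstream. Set beside the longest runs of the other windows, this run of 8 peaks was at percentile 79.4, and 438 windows had a longer one. For values of 3 or more, the longest run in the Fos window had 5 peaks. It was at percentile 92.1, and 151 windows had a longer one. Runs were looked for after the values had been seen. A window with more peaks and fewer values of 1 has more room for long runs. The windows were not matched for these, so the ranks by run are not separate from those by number and by value.

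The upstream and downstream sides of the window differed in the share of peaks with a value of 3 or more and little in number. The upstream side held 45 peaks and the downstream side 44, with the start site peak on neither. Upstream, 20 of 45 peaks had a value of 3 or more, or 44.4% (exact binomial 95% interval 29.6 to 60.0%), and 13 a value of 1. Downstream, 9 of 44 had a value of 3 or more, or 20.5% (9.80 to 35.3%), and 18 a value of 1. The difference of 24.0 percentage points in the share with a value of 3 or more was larger than that between the left and right 500 kb of most other windows, at percentile 94.2 of 2429 windows with at least 10 peaks on each side, where the median difference was 6.77 points. The difference of 12.0 points in the share with a value of 1 was at percentile 61.7, against a median of 9.44 points. By number of peaks, a difference of 1 was at percentile 6.61. Median length was 880 bp upstream and 843 bp downstream, a difference at percentile 18.4. Of these 4 differences only that in the share of values of 3 or more ranked high among the other windows, some of which exceeded it, and the intervals of the 2 shares overlapped.

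The largest gap of the window, 33634 bp (chr6:108832775-108866408), lay from 434.0 to 467.7 kb upstream. The next were 33142 bp, from 138.8 to 171.9 kb upstream and inside the run of 14 peaks, and 32833 bp, from 392.4 to 425.2 kb downstream. Upstream, 4 of 45 gaps were wider than 20 kb, and downstream 8 of 44, of which those of 24629 and 24420 bp lay within 100 kb of the start site. The smallest gap, 923 bp, lay downstream and was the only one of the 89 gaps at or below 1000 bp. The densest 100 kb, chr6:109397684-109497683, lay from 97.3 to 197.2 kb downstream and held 14 peaks with a median length of 925 bp, 50% of them with a value of 1. The densest stretch was thus neither the one with the highest values nor the one around the start site.

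To place the whole window, it was set beside 2607 other 1 Mb windows tiled over the autosomes. With 90 peaks against a median of 74 it was at percentile 73.1, and 682 windows held more. By base pairs in peaks, 84340 bp against a median of 59905 bp, it was at percentile 81.1. The number of peaks of 1000 bp or longer, 34 against a median of 19, was at percentile 88.3. By number and covered length, then, the Fos window was above the middle of the autosomes and below their upper end, since windows reached up to 150 peaks and 211822 bp.

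Length, spacing and value were compared over the 2580 windows with at least 10 peaks. The median peak length of 865 bp was at percentile 94.5, against a median over windows of 678 bp, and 142 windows had a higher one. The median gap was at percentile 25.4, against a median over windows of 8263 bp, and moved to 16.5 with windows of 250 kb on each side, to 11.5 with 1 Mb on each side and to 36.0 among windows centred on peaks. The largest gap was at percentile 4.69, against a median of 67700 bp, so that nearly all other windows had a longer stretch without a peak. The share of peaks with a value of 3 or more, 33.3%, was at percentile 90.4, which moved to 75.5 with 1 Mb on each side and to 96.5 among windows of chromosome 6. The share with a value of 1, 34.4%, was at percentile 8.64. The percentile by value of 1 was 24.5 with 1 Mb on each side and 2.84 among windows of chromosome 6. The settings for gaps and values were chosen after seeing the data.

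**Figure D4:**
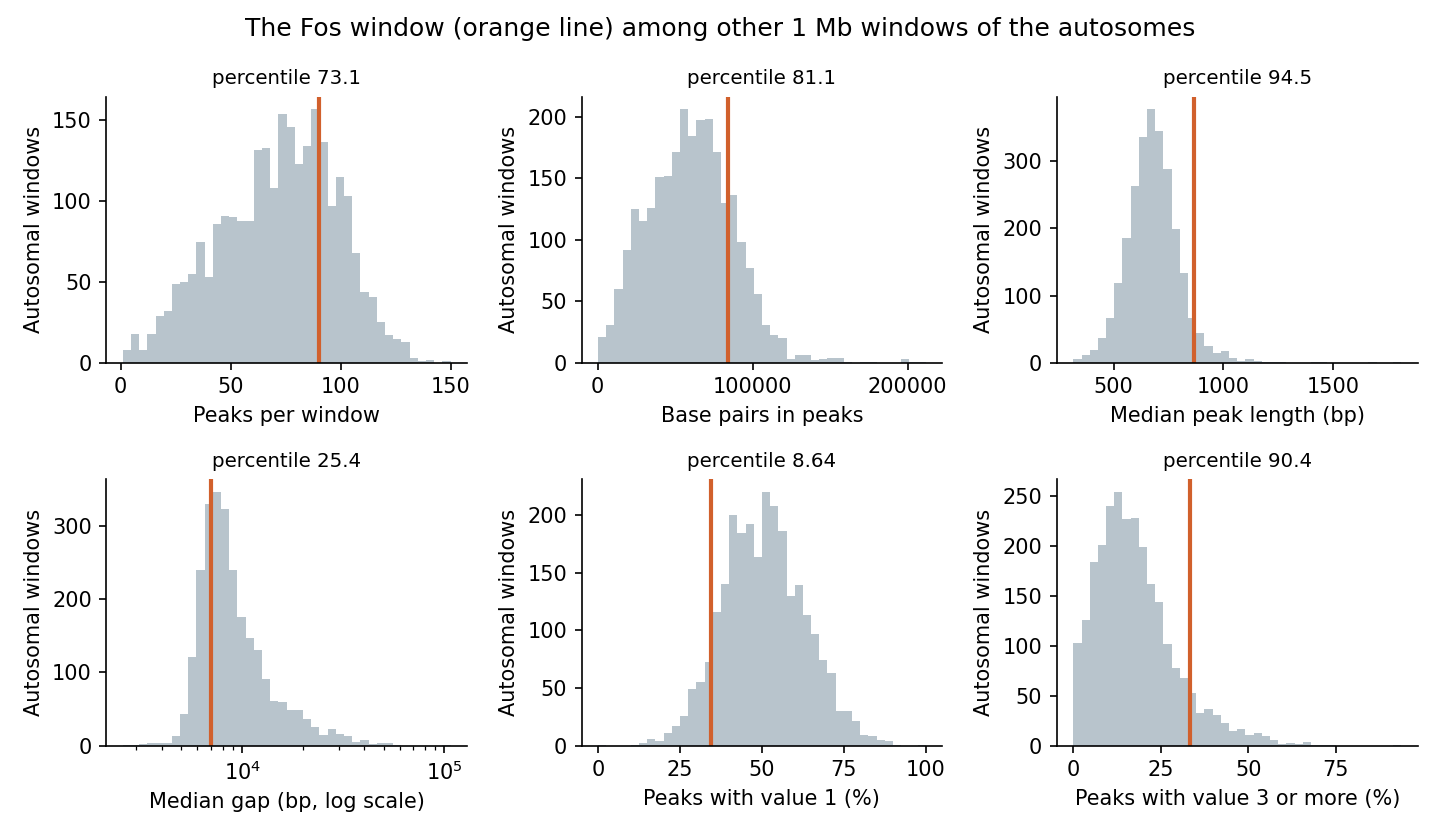
Histograms of the other autosomal 1 Mb windows by number of peaks, base pairs in peaks, median peak length in bp, median gap in bp (log axis) and percent of peaks with a value of 1 and of 3 or more, with the Fos window as an orange line and its percentile above. The line lies furthest from the bulk of the windows for median length (percentile 94.5) and for the shares of values (8.64 and 90.4).

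Length and value went together, in the window and outside it. If the value counts merged peaks, part of this is built in, since a merged peak is at least as long as each of its parts. How large that part is was not tested. In the Fos window the median length was 427 bp at a value of 1, 872 bp at 2 and 1278 bp at 3. Among the other autosomal peaks it was 430 bp, 829 bp and 1303 bp. At equal value the peaks around Fos were thus about as long as peaks elsewhere, and the quartiles overlapped at each value. Over all values the median in the window was 176 bp above that of the other autosomal peaks, and with the other peaks weighted to the shares of values found in the window their median rose from 689 to 821 bp, which leaves the window 44 bp above. With the peaks of the window weighted to the shares found elsewhere, their median was 653 bp, which leaves the window 36 bp below. Most of the difference in median length was thus no longer seen once the shares of values were made equal, and the sign of the rest depended on which peaks were weighted.

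**Figure D5:**
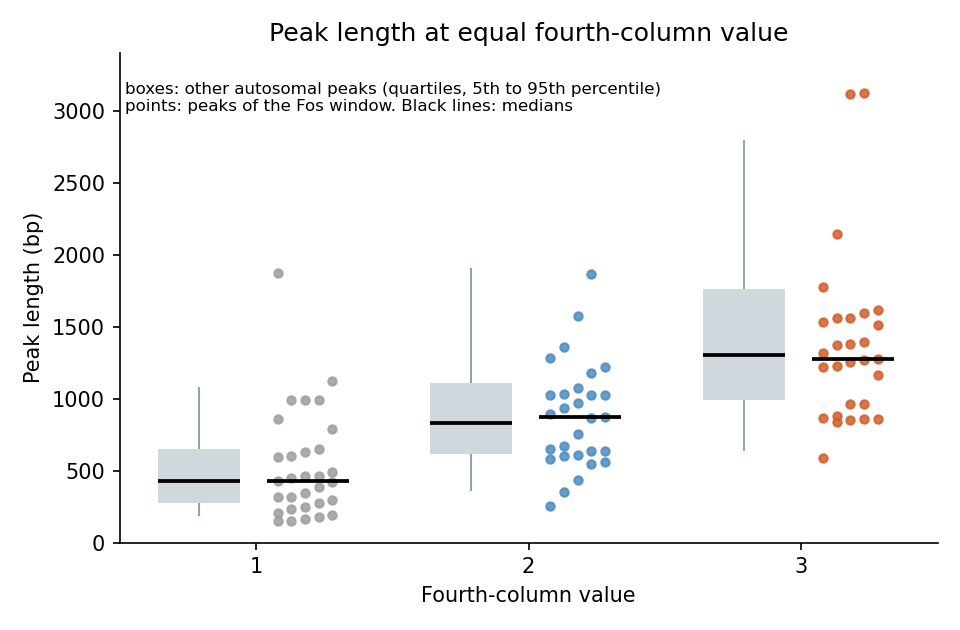
Peak length in bp at fourth-column values of 1, 2 and 3 for the peaks of the Fos window (points, 31, 29 and 29 peaks) and the other autosomal peaks (boxes from lower to upper quartile, thin lines from the 5th to the 95th percentile), with black lines at the medians. The medians of both lie close together at each value, 427 and 430 bp, 872 and 829 bp, and 1278 and 1303 bp.

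The longest peak with a value of 1 was an exception to this relation. It was chr6:109003332-109005201, centred 296.2 kb upstream, whose 1870 bp placed it at percentile 99.4 of the 90723 autosomal peaks with a value of 1 and at rank 5 of the window. It was named after its values had been seen. The peak of 3122 bp at 339.9 kb upstream, chr6:108959018-108962139, had a value of 3 and was 8 bp longer than the peak at the Fos start site. The longest peak of the window was thus not at Fos itself.

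The megabases that adjoin the window on chromosome 6 were then described. The 1 Mb before it held 87 peaks and the 1 Mb after it 103, against 90 around Fos. The share with a value of 3 or more was 17.2% before and 17.5% after, against 33.3%, and the median length was 773 and 613 bp, against 865 bp. Among the 145 other windows of chromosome 6, with a median of 79 peaks, 44 held more peaks than the Fos window. The contrast in value depended on where the neighbours were cut. In the nearest tiles of 1 Mb that did not overlap the window, chosen after seeing the data, the share with a value of 3 or more was 29.1% before (chr6:107000001-108000000) and 30.7% after (chr6:110000001-111000000), closer to the 33.3% around Fos.

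No annotation of rn6 was used, so that the peaks are given by position and not as exonic, intronic or intergenic, and apart from the start site of Fos none is assigned to a gene. By RefSeq gene order on the GRCr8 assembly, used for names and order only, the nearest named protein-coding genes at lower coordinates were Tmed10, a cargo receptor between endoplasmic reticulum and Golgi, Nek9, a mitotic kinase, Zc2hc1c, Acyp1, an acylphosphatase, and Mlh3, which acts in DNA mismatch repair. At higher coordinates they were Jdp2 and Batf, both bZIP proteins that pair with Jun proteins as Fos does, then Flvcr2, a membrane transporter, Erg28, and Ttll5, a tubulin-modifying enzyme. Peaks far from the start site may belong to these genes as well as to Fos, which the list cannot tell apart.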

How the data were processed

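Per the paper's methods and the submitters' processing notes, the authors trimmed reads with Trim Galore 0.4.5, aligned them to rn6 with Bowtie2 2.3.4.2, sorted them with SAMtools 1.9, pooled libraries per culture system, called peaks with MACS2, joined peaks of a culture system within 1000 bp, dropped those under 146 bp, and combined the 3 culture systems. The deposited list gives each peak's chromosome, start and end, and a score, a whole number that the authors did not describe. Starts were converted to count from 1. Windows were tiled from position 1 of each autosome, leaving out those that overlap the Fos window, and compared by rank without a test. Medians and shares used windows with at least 10 peaks. Named by rule were the start site and enhancer peaks, the others within 50 kb, the 3 longest peaks, the largest gap, the densest 100 kb, the 3 most similar windows and the 5 nearest genes per side. Members and lists were chosen with earlier results of these data known. A total of 13 alternative settings were tried. Calculations, tested on simulated data, used Python 3.11.15, numpy 2.4.6, pandas 2.3.3 and scipy 1.17.1, with matplotlib 3.10.9 for plots. Promoters are those of RefSeq on GRCr8.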

Additional observations from a re-analysis of the deposited data

How the results depend on the processing

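Of 59 recalculated values that answer a comparison, 43 remained within 1.5 times a count or within the 95% interval of a median, share or percentile, and 16 did not. Of the 43, 2 could not differ, the length of the start site peak without shorter peaks and the percentile by median length among windows of at least 10 peaks. By construction of the window or distance, there were 50 peaks within 250 kb and 187 within 1 Mb of the Fos start site, and 19 within 100 kb. The percentile by peak number was 75.7 with peaks of 300 bp or more, 60.7 among windows centred on peaks, 69.7 on chromosome 6, 82.1 with 250 kb and 82.9 with 1 Mb on each side. That by covered length was 73.0 among windows centred on peaks and 89.4 with 250 kb on each side. That by median peak length was 93.2 with peaks of 300 bp or more, 92.8 with peaks within 1000 bp merged, 95.7 on chromosome 6, 92.0 with 250 kb and 84.9 with 1 Mb on each side. The share of peaks with a value of 3 or more was 23.0% with 1 Mb on each side. The cause was not tested. Every percentile by number, covered length and median length stayed above 50 in these settings. Settings for ranks by gap and by value were chosen after seeing the data, and of 30 such values, with the rank by number around long peaks and the neighbouring tiles included, 16 moved beyond the interval and 3 of the other 14 could not differ. No paired analysis was possible because peaks were called on pooled reads and no result comes from a test. Depth limits which weak peaks are listed, and is unknown.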

Other observations

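The 3 other autosomal windows closest to the Fos window, by distance over number of peaks, covered length, median length, median gap and share of peaks with a value of 1, each scaled by its SD over windows, were chr1:197000001-198000000, chr16:81000001-82000000 and chr11:83000001-84000000. Their distances were 0.185, 0.212 and 0.330, against a median of 2.51 over the 2580 windows compared. They held 90, 90 and 92 peaks, with median lengths of 861, 846 and 838 bp. Their shares of peaks with a value of 3 or more, which the distance did not use, were 28.9%, 25.6% and 26.1%, against 33.3% in the Fos window. Their largest gaps were 61000, 44297 and 40327 bp, against 33634 bp. The closest windows by these measures thus had lower point values for this share and longer peak-free stretches than the window around Fos. The exact binomial interval of the Fos share, 23.7 to 44.1%, contained all 3 of the other shares. Most windows of the autosomes also lay on the same side of Fos, which was at percentile 90.4 by this share and 4.69 by largest gap. Whether the closest windows differ from the Fos window beyond this was not tested.

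Of the 10 named genes nearest to Fos, 9 had a RefSeq promoter on GRCr8, from 250 bases before to 50 after the start. Fos itself had no promoter in this set, so its own promoter was not searched for motifs. The short form of the CRE, TGACG, on either strand, was found in 6 of the 9, those of Acyp1, Nek9, Jdp2, Batf, Erg28 and Ttll5, and in 21.2% of all 33469 promoters. The whole CRE, TGACGTCA, and the AP-1 motif, TGANTCA, were in 0 of the 9, and in 1.83% and 7.33% of all. The E-box, CANNTG, was in 7 of the 9 and in 72.1% of all, and the TATA box and the CArG box in 0 of the 9, and in 14.2% and 1.64% of all. The GC box GGGCGG was in 5 of the 9 and in 33.1% of all. Its 5 promoters were those of Jdp2, Batf, Flvcr2, Erg28 and Ttll5, all on the side of higher coordinates. These are matches of letters and say nothing of binding.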
